A study of Arabidopsis thaliana with 6 samples.

Results

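SAG101, BIK1, WRKY22, WRKY53 and WRKY6 are 5 immune or senescence genes of Arabidopsis thaliana that were read in leaves of the pad4 mutant and of the pad4 est1b double mutant. They were taken by name, through probe sets assigned to 1 gene, with the brightest probe set kept where a gene has several. Each gene has exactly 1 such probe set, so the 5 genes stand for 5 of the 22810 probe sets on the array. The series compared total RNA from leaves on 6 Affymetrix ATH1 arrays, 3 per genotype. The pad4 plants carry pad4-1 (stock N3806, strain Col). The double mutant carries pad4-1 with the insertion SALK_073354 (allele est1b-1, strain Col-0). By these labels all 6 samples carry pad4-1, and a wild type or a single est1b mutant is not analysed here. Plants grew on soil at 22 degrees C under phases of 16 and 8 hours (which was light is given both ways round), 2 weeks at about 95% humidity and then 3 weeks at about 70%. The labels give stage 5.10 and developed rosette leaves for the 3 double mutant samples and pad4 replicate 1, and stage 3.90 and leaves for pad4 replicates 2 and 3, although the growth text is the same for all. They do not say whether replicates came from separate plants, so the p-values reflect only how these 6 samples spread, which may be technical.

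SAG101 and PAD4 are relatives that each pair with EDS1, the central lipase-like protein of immunity triggered by intracellular TIR-type receptors. The EDS1 and PAD4 pair raises salicylic acid defence, while the EDS1 and SAG101 pair promotes host cell death. BIK1 is a cytoplasmic kinase that surface immune receptors phosphorylate, and WRKY22 is a transcription factor further down the kinase cascades of the same response. WRKY53 and WRKY6 are transcription factors best known for their rise as leaves age, with further roles in defence.

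No difference of the 5 genes between the genotypes passed the test. The log2 fold changes of the double mutant over pad4 ran from -0.18 for WRKY22 to 0.24 for WRKY6, and the signals of the 2 groups overlapped in all 5. By limma over all 12804 probe sets bright enough to use, 0 of the 5 passed an adjusted p of 0.05, and 0 had an unadjusted p under 0.05 (0.38 to 0.85). Over all probe sets the same rule called 0.0391%, 5 in number and all higher in the double mutant, and 4.44% had an unadjusted p under 0.05. Groups that do not overlap occurred in 9.81% of all probe sets. Every 95% interval of the 5 genes lay within 1 unit of 0 on the log2 scale, but only narrowly for SAG101 and WRKY22. Without the offset added before taking logs, those of SAG101 and WRKY22 reached 1.29 and -1.18. Of the 5 values 4 were positive and 1 negative, with a median of 0.13 against 0.03 over all probe sets, 54.6% of which were positive.

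**Figure D1:**
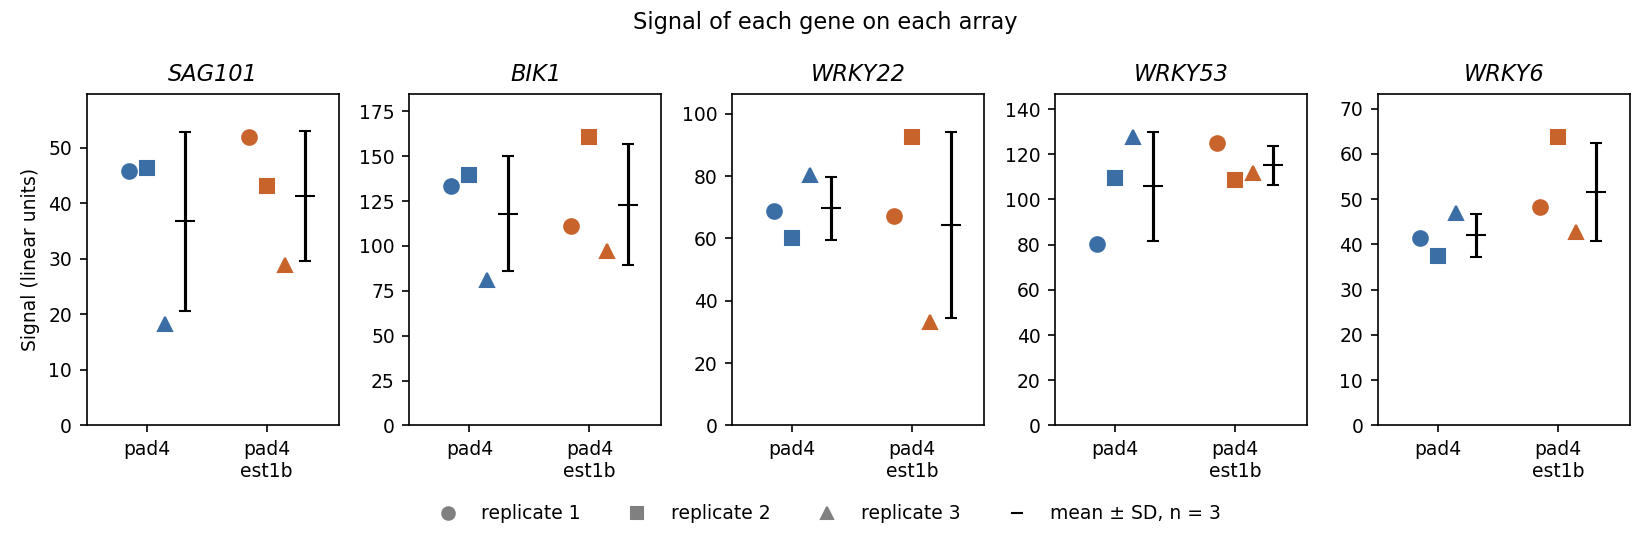
Signal in linear units (y axis, each panel with its own scale from 0) for the 3 pad4 and 3 pad4 est1b arrays, with a symbol for each replicate number and black bars for the mean ± SD (n = 3). The 2 groups overlap in every panel; SAG101 and BIK1 are lowest in replicate 3 of each group, and WRKY22 is lowest at 33.3 in replicate 3 of the double mutant.

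SAG101 (AT5G14930), the EDS1 partner beside PAD4, read 45.8, 46.3 and 18.2 signal units in pad4 replicates 1, 2 and 3, and 52.0, 43.2 and 28.9 in those of the double mutant. In both groups replicate 3 was the low array, and the other 4 arrays lay close together. The group means were 36.8 ± 16.1 for pad4 and 41.4 ± 11.7 for the double mutant (SD, n = 3). The log2 fold change was 0.18 ± 0.35 (SE; 95% interval -0.63 to 0.98), with an adjusted p of 1.00 by limma. Within pad4 the arrays spanned 1.00 on the log2 scale and within the double mutant 0.67, both wider than the difference between genotypes. Without pad4 replicate 3, whose signal lies under the filter of 20 units that the gene passed through its mean, the value was -0.15.

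BIK1 (AT2G39660), the kinase that passes signals from receptors such as FLS2 to the oxidase RBOHD, read 133, 139.6 and 81.1 units on the 3 pad4 arrays and 111, 161 and 97.1 on those of the double mutant. Replicate 3 was again the lowest in each group. Mean signals were 118 ± 32.1 for pad4 and 123 ± 33.5 for the double mutant (SD, n = 3). BIK1 had the smallest difference of the 5 genes, at 0.06 ± 0.31 on the log2 scale (SE; 95% interval -0.65 to 0.77). Its sign was not stable: the value was -0.17 without pad4 replicate 3, -0.13 without double mutant replicate 2 and -0.03 after quantile normalization.

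WRKY22 (AT4G01250), induced in pattern-triggered immunity and in leaves that age in the dark, read 68.7, 60.2 and 80.2 units across pad4 replicates 1 to 3 and 67.2, 92.6 and 33.3 across the double mutant. The double mutant held both the highest and the lowest of the 6 values, so all pad4 arrays lay between them. Its means were 69.7 ± 10.1 for pad4 and 64.4 ± 29.8 for the double mutant (SD, n = 3). WRKY22 was the only gene of the 5 with a negative log2 fold change, -0.18 ± 0.35 (SE; 95% interval -0.98 to 0.62). That sign rested on a single array, since the value was 0.17 without double mutant replicate 3.

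WRKY53 (AT4G23810), an early regulator of leaf senescence that also acts in defence, gave 80.1, 109.6 and 128 units for pad4, against 125, 109 and 112 for the double mutant. The lowest value was pad4 replicate 1 and the highest pad4 replicate 3, and all 3 double mutant arrays lay between them. The pad4 average was 106 ± 24.0 and that of the double mutant 115 ± 8.56 (SD, n = 3). The log2 fold change was 0.13 ± 0.26 (SE; 95% interval -0.47 to 0.73). Without pad4 replicate 1 the value was -0.04.

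WRKY6 (AT1G62300), which is active in ageing and infected leaves and represses the phosphate exporter gene PHO1, gave 41.5, 37.5 and 47.0 units for pad4, against 48.3, 63.8 and 42.9 for the double mutant. Double mutant replicates 2 and 1 were the highest arrays, while replicate 3 of the double mutant fell inside the pad4 range. On average pad4 stood at 42.0 ± 4.81 and the double mutant at 51.7 ± 10.9 (SD, n = 3). The log2 fold change of 0.24 ± 0.25 (SE; 95% interval -0.34 to 0.81, unadjusted p = 0.38 and adjusted p = 1.00 by limma) was the highest of the 5 genes. It was positive in all 17 alternatives that could be fitted, from 0.10 to 0.41, with 0 calls. Some of these cannot change the value: no filter, the replicate block, the variance model and leaving out probe sets that can cross-hybridise. Between same-numbered arrays the log2 difference, double mutant minus pad4, was 0.18, 0.64 and -0.11 (numbers 1, 2 and 3).

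**Figure D2:**
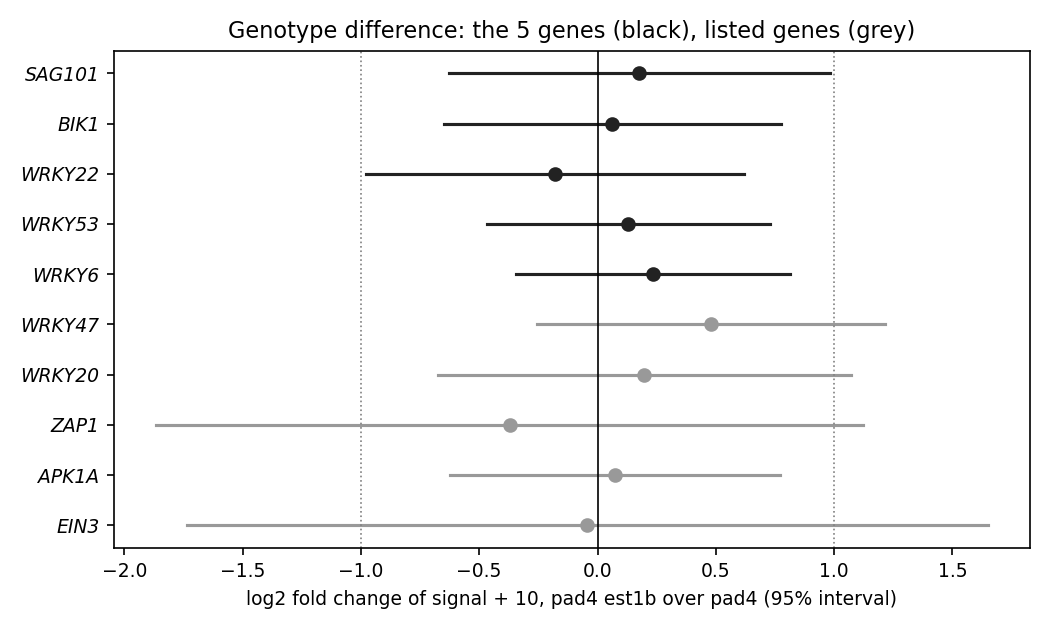
Log2 fold change of signal + 10, pad4 est1b over pad4, with its 95% interval by limma (x axis) for the 5 genes in black and for 5 further listed genes bright enough to test in grey; dotted lines mark 1 unit either side of 0. Every interval includes 0, and those of the 5 genes stay between the dotted lines (-0.98 to 0.98 at the widest).

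The labelled stage splits pad4 but not the double mutant, so a comparison at stage 5.10 has 1 pad4 array, replicate 1, against 3. With stage as a covariate the log2 fold change was -0.15 for SAG101, -0.14 for BIK1, -0.17 for WRKY22, 0.47 for WRKY53 and 0.25 for WRKY6, with an adjusted p of 0.99 by limma for each. SAG101 and BIK1 thus changed sign, and WRKY53 had its largest value under any setting, since its pad4 replicate 1 signal of 80.1 units was below all 3 double mutant arrays. The lone pad4 array is assumed there to vary like the others. Stage and array differences within pad4 cannot be told apart.

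In all 5 genes the wider of the 2 within-group ranges was larger than the genotype difference on the log2 scale, from 0.48 for WRKY6 to 1.25 for WRKY22. Ranges of 3 arrays commonly exceed a difference of means, and the share of all probe sets where they did was not computed. The residual SD on the log2 scale was 0.47 for SAG101, 0.47 for WRKY22 and 0.37 for BIK1, but 0.23 for WRKY53 and 0.20 for WRKY6, against a median of 0.40 over all probe sets. SAG101 and BIK1 were lowest in replicate 3 of both groups, an arrangement that 34.7% of all probe sets shared. WRKY22 was highest in replicate 3 of pad4 and lowest in replicate 3 of the double mutant, which 3.96% of all probe sets were. The highest array over the lowest was 2.86 for SAG101, 2.78 for WRKY22, 1.98 for BIK1, 1.70 for WRKY6 and 1.59 for WRKY53.

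**Figure D3:**
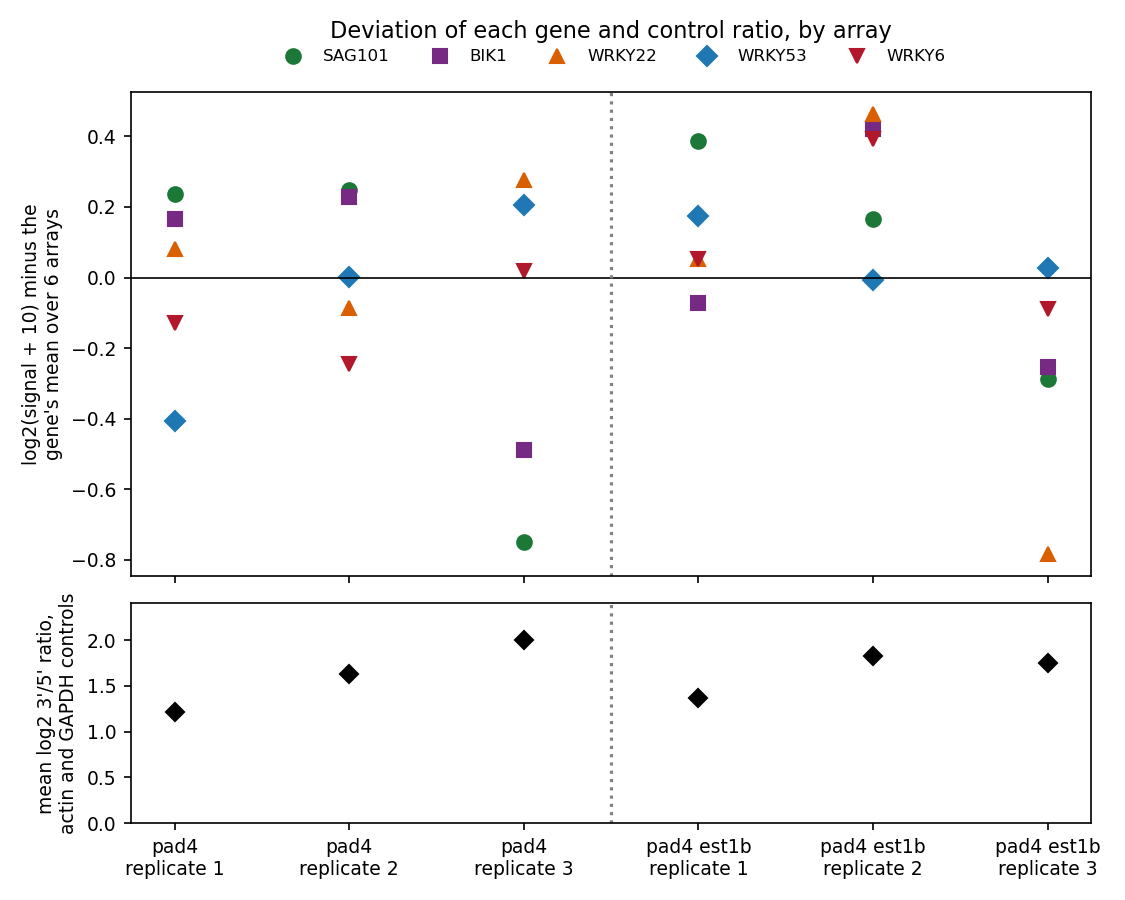
Upper panel: log2(signal + 10) of each gene minus its mean over the 6 arrays (y axis), by array (x axis, pad4 left of the dotted line and pad4 est1b right of it). Lower panel: 3'/5' signal ratio of control probe sets for actin and GAPDH on the same arrays (mean of the log2 values), from 1.21 to 2.00. SAG101 and BIK1 lie below 0 on both replicate 3 arrays, whereas WRKY53 lies above 0 on both.

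A measure of RNA integrity also differed between the arrays. Control probe sets at the 3' and 5' ends of actin and GAPDH gave a log2 ratio, averaged over both genes, of 1.21, 1.63 and 2.00 for pad4 replicates 1, 2 and 3. For the double mutant it was 1.37, 1.82 and 1.75. Its size depends on the control chosen, since a second GAPDH pair stayed between -0.08 and 0.08. With the ratio as a covariate the log2 fold change was 0.22 for SAG101, 0.08 for BIK1, -0.18 for WRKY22, 0.11 for WRKY53 and 0.23 for WRKY6, with 0 calls. The first principal component over all probe sets (64.9% of the variance) scored the replicate 1 arrays at 44.2 (pad4) and 43.0 (double mutant) and the replicate 3 arrays at -67.2 and -37.8. The part of RNA integrity in the low SAG101 and BIK1 signals was not tested. In leaf RNA of this kind, fewer cells of a type and less RNA per cell cannot be told apart.

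No relation between any 2 of the 5 genes across the arrays passed its test. Of the 10 pairs, SAG101 with BIK1 had the highest Pearson correlation of log2(signal + 10) over the 6 arrays, with r = 0.79 (exact permutation p = 0.075, 0.74 after Benjamini-Hochberg adjustment over 10 pairs) and Spearman's rho = 0.49 (exact permutation p = 0.36, 0.89 adjusted). Without the 2 arrays farthest from the SAG101 median, which are both replicate 3 arrays, r was -0.97 over 4 arrays. The positive relation therefore rested on those arrays. WRKY22 with WRKY6 came next by r at 0.58 and had the highest rho, 0.60 (exact permutation p = 0.15 and 0.24, 0.74 and 0.89 adjusted), with r = 0.70 over 4 arrays without double mutant replicates 2 and 3. WRKY53 had negative values with SAG101 (r = -0.40, rho = -0.26, exact permutation p = 0.36 and 0.66) and with BIK1 (r = -0.52, rho = -0.77, exact permutation p = 0.28 and 0.10). Without both replicate 3 arrays, the farthest from the SAG101 median, r of WRKY53 with SAG101 was 0.48. Without pad4 replicate 3 and double mutant replicate 2, the farthest from the BIK1 median, r of WRKY53 with BIK1 was -0.50. Over the 10 pairs the lowest adjusted p of the exact permutation tests was 0.74 for r and 0.89 for rho.

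How common each profile is differed between the 5 genes. Among 6891 other probe sets bright enough and named for 1 gene, Pearson's r over the 6 arrays exceeded 0.9 with SAG101 in 752, with BIK1 in 81, with WRKY6 in 22, with WRKY22 in 21 and with WRKY53 in 7. These correlations are descriptions over 6 arrays that share their labelling and scaling, and the closest genes were picked as the top of all 6891. The closest to SAG101 were AT5G53150 (r = 0.998), AT4G25210 (r = 0.997) and AT4G36210 (r = 0.996). As rank correlations (Spearman's rho) these were 0.94, 0.77 and 0.83. For BIK1 they were AT3G17450, AT4G39560 and AT5G13780 (each with r of 0.98). AT4G28150, AT3G21790 and AT5G43190 were closest to WRKY22 (r from 0.98 to 0.95), with rho of 0.94, 0.71 and 0.83. AT1G15170, AT2G34810 and AT5G47070 were closest to WRKY53 (r from 0.98 to 0.95). For WRKY6 the closest were AT3G14360, AT1G76940 and AT4G34180 (r from 0.99 to 0.98).

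The same pathways offered few further genes, because most of their listed members have no probe set used here that names them alone. Of 9 listed genes of the EDS1 module 2 had one, and only SAG101 passed the filter on dim signals. The other, AT3G48080, averaged 9.73 ± 1.76 units for pad4 and 8.46 ± 3.84 for the double mutant (SD, n = 3), under the filter. Of 19 listed genes of salicylic acid defence WRKY53 alone could be read. EDS1 and the mutated genes are not analysed here, so the genotypes were not checked and the labels were taken as given.

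Pattern-triggered immunity gave 3 of 21 listed genes, BIK1, WRKY22 and EFR, the receptor of the bacterial elongation factor Tu. EFR read 29.6, 22.0 and 19.8 units on the pad4 arrays, against 14.6, 13.5 and 12.0 on those of the double mutant. All double mutant values lay below all pad4 values, but its mean of 18.6 units fell under the filter, so it was no part of the fit above. Groups that do not overlap occurred in 9.81% of the probe sets kept, and the share among dimmer ones was not computed. In the fit without the filter its log2 fold change was -0.53 ± 0.18 (SE, 95% interval -0.95 to -0.10). By limma its unadjusted p was 0.022 and its adjusted p 0.86, which did not pass. In that fit, which took all 22810 probe sets but the 64 controls, 1156 had an unadjusted p under 0.05 by limma. Of 9 listed kinases related to BIK1, APK1A, another protein kinase of that group, averaged 33.5 ± 13.7 units for pad4 and 34.3 ± 4.60 for the double mutant (SD, n = 3), a difference of 0.07 on the log2 scale with an adjusted p of 1.00 by limma. AT5G18610 reached 1.29 units at most. For the 2 kinases that passed the filter, BIK1 and APK1A, 0 were called, with a median log2 fold change of 0.07. Dropping single arrays moved that median from -0.18 (pad4 replicate 3) to 0.24 (pad4 replicate 2), with -0.068 when double mutant replicate 2 was dropped. It was also below 0 with stage as a covariate (-0.072), with quantile normalization (-0.0083), with median centring (-0.0046) and when both replicate 3 arrays were dropped (-0.068).

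Leaf senescence gave 5 of 23 listed genes above the filter, 3 with a positive and 2 with a negative log2 fold change. Of these senescence genes 0 were called, against 0.0391% of all probe sets, of which 54.6% were positive. The median of the senescence genes was 0.13, against 0.03 over all probe sets. The sign of that median turned with stage as a covariate (-0.15), with a filter at 50 units (-0.043) and when pad4 replicate 3 was dropped (-0.086), and the median was 0.34 when double mutant replicate 3 was dropped. Besides SAG101, WRKY6, WRKY53 and WRKY22 these included EIN3, the ethylene response regulator that promotes ageing. EIN3 read 558, 373 and 81.4 units on the pad4 arrays and 535, 256 and 116 on those of the double mutant, so its arrays differed by up to 6.86-fold while the genotypes differed by -0.04 on the log2 scale (-1.11 with stage as a covariate). SAG29, a sugar transporter gene of old leaves, was dim, at 1.34 ± 0.64 units for pad4 and 6.08 ± 4.18 for the double mutant (SD, n = 3). In the fit without the filter SAG29 had a log2 fold change of 0.47 and an adjusted p of 1.00 by limma. SAG12, the usual marker of late senescence, is not analysed here.

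In the WRKY family 7 of 72 genes could be read and 6 passed the filter, of which 4 had a positive and 2 a negative log2 fold change. Of the 6, 0 were called, against 0.0391% of all probe sets, of which 54.6% were positive. Their median was 0.16, against 0.03 over all probe sets. Besides the 3 described above the 6 genes were WRKY47, WRKY20 and ZAP1, also known as WRKY1. WRKY47 averaged 45.5 ± 11.7 units for pad4 and 69.3 ± 27.6 for the double mutant (SD, n = 3). Its log2 fold change was 0.48 ± 0.32 (SE; unadjusted p = 0.17 and adjusted p = 1.00 by limma). Over the alternatives it ran from 0.21 (double mutant replicate 2 dropped) to 0.67 (double mutant replicate 3 dropped), with 0 calls. WRKY20 stood at 71.9 ± 34.5 and 79.6 ± 21.5 units (SD, n = 3), a log2 difference of 0.20. ZAP1 read 145, 87.4 and 19.0 units across pad4 and 97.0, 48.7 and 22.3 across the double mutant, low in replicate 3 of both groups, and its log2 fold change was -0.37 ± 0.65 (SE), or -1.40 with stage as a covariate. WRKY42, which acts with WRKY6 on PHO1, reached 9.10 units at most, and PHO1 itself is not analysed here.

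The labelled tissue could be checked with 4 of 20 listed photosynthesis genes. RCA, LHCB4.1, LHCB4.2 and PRK ranged from 2016 to 9805 units over the 6 arrays, with LHCB4.2 at 8060 ± 805 units for pad4 and 7774 ± 1837 for the double mutant (SD, n = 3). The 4 genes had a median log2 fold change of 0.02 with 0 called. The root hair gene EXPA7, the only flower or root marker read, averaged 3.50 ± 3.92 and 7.94 ± 9.12 units (SD, n = 3), under the filter. The guard cell gene FMA, also written FAMA, averaged 65.8 ± 35.8 units for pad4 and 54.0 ± 9.16 for the double mutant (SD, n = 3).

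**Figure D4:**
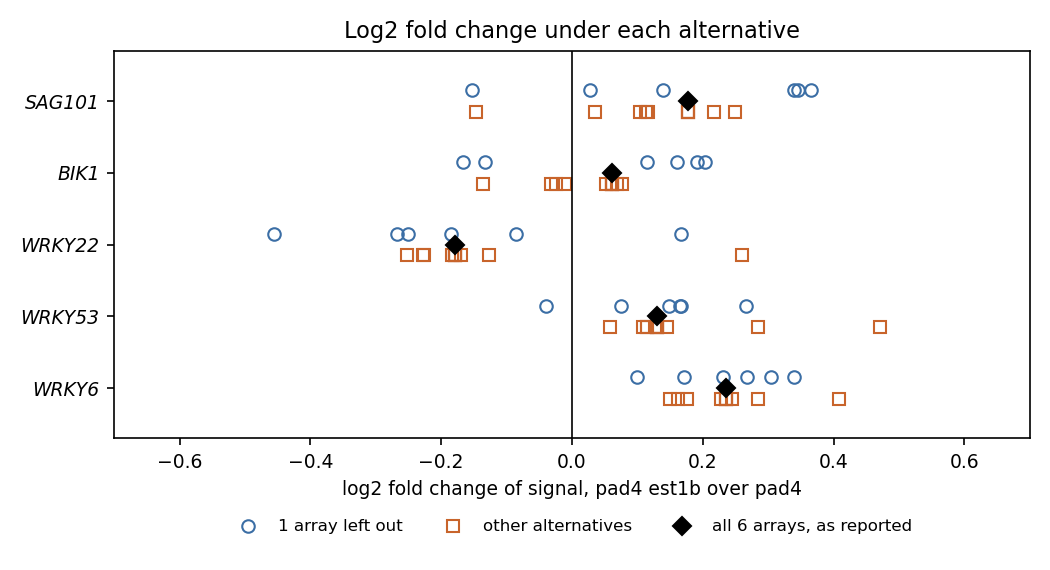
Log2 fold change of signal, pad4 est1b over pad4 (x axis), for each of the 5 genes as reported (black diamonds), with 1 array left out (blue circles) and under the other alternatives (orange squares). Values of WRKY6 stay above 0 (0.10 to 0.41), while those of SAG101, BIK1, WRKY22 and WRKY53 fall on both sides of 0.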

How the data were processed

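Total RNA from leaves was hybridised to 6 one-colour Affymetrix ATH1 arrays. Per the labels' protocols the RNA came from a Qiagen kit, and biotin was added with the 3' IVT Express kit. Values were deposited as intensities per probe set on a linear scale, for which the submitters' processing notes name MAS5 and GCOS. Their versions and settings are not given in the sources here, nor are detection calls. Each array had a 2%-trimmed mean of 100.0, and total signal ran from 3405664 to 3894818 units.

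Of 22810 probe sets 64 are controls, 13513 have 1 gene, 503 several and 8730 none listed in the platform annotation; 13436 of those with 1 gene matched the TAIR10.1 reference table, used for names alone. Signals plus an offset of 10 were taken to log2, and 12804 probe sets (6892 with 1 gene) whose signal averaged at least 20 were kept, controls aside. Fold changes on this scale understate those of dim genes. Genotypes were compared by limma's moderated test (version 3.58.1 in R 4.3.3; lmFit, then eBayes), which was two-sided and had no covariate, with Benjamini-Hochberg adjustment over all probe sets kept and a threshold of 0.05. With 3 arrays per group, precision is limited by their number. The fit was tested on simulated data with independent noise for each probe set and array. That test does not cover differences between arrays that many probe sets share. Correlations used exact permutation tests in scipy 1.17.1 (Python 3.11.15).

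The 5 genes and the lists were chosen with earlier results of these data known. The rule for genes named takes the 5 genes, the 3 most similar genes to each, every measured gene of short lists and, from longer lists and the WRKY family, those with the highest and lowest fold changes; of tissue markers it takes up to 3 by brightness. EXPA7, FMA and PRK stand beyond the 3 brightest markers, to show what was measured. Alternatives changed the offset, filter, normalization, covariates, variance model, replicate block and arrays used. No second probe set existed to try for any of the 5 genes.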

Additional observations from a re-analysis of the deposited data

How the results depend on the processing

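The limits are 3 arrays per group, 1 probe set per gene and ranges within groups that exceed every difference of the 5 genes. None of the 5 was called in any of 88 refits over 18 alternatives (lowest adjusted p 0.76 by limma). Of these 88 values 11 changed sign. Some could not change at all, since a changed filter, the replicate block, the variance model and leaving out cross-hybridising probe sets keep each gene's fold change. With stage as a covariate SAG101 had -0.15, BIK1 -0.14, WRKY20 -0.39 and APK1A -0.0090; ZAP1 and EIN3 kept their sign there, at -1.40 and -1.11. Without both replicate 3 arrays BIK1 had -0.024, WRKY22 0.26 and APK1A -0.11. BIK1 had -0.032 with quantile normalization and -0.011 with median centring, and EIN3 had 0.073 with the control ratio as a covariate. With single arrays left out the log2 fold change ran from -0.15 to 0.37 for SAG101, -0.17 to 0.20 for BIK1, -0.46 to 0.17 for WRKY22, -0.039 to 0.27 for WRKY53, 0.10 to 0.34 for WRKY6, 0.21 to 0.67 for WRKY47, -0.17 to 0.49 for WRKY20, -1.07 to 0.14 for ZAP1, -0.18 to 0.29 for APK1A and -0.83 to 0.49 for EIN3. SAG101 and WRKY6 lie under a filter at 50 units and gave no value there. The cause of these moves was not tested. Intervals of the 5 genes reached beyond 1 unit under some settings, for example -1.30 to 1.01 for SAG101 with stage as a covariate.

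Over all probe sets limma called 5 higher and 0 lower in the double mutant, but 0 higher when the offset or the filter was dropped, when stage was a covariate or when probe sets that can cross-hybridise were left out. There were 2 with quantile normalization, 1 after median centring, 36 with the control ratio as covariate and 19 after removal of both replicate 3 arrays. Leaving out 1 array at a time gave 0 to 9 higher, and 0 lower in each. A replicate block in limma gave 70 higher and 11 lower; the 5 genes kept their values and had an adjusted p from 0.76 to 0.95. Deviations from the group means had a correlation between same-numbered arrays of 0.83, 0.00023 and 0.68 (numbers 1, 2 and 3). The main fit did not take the numbers as pairs, and these correlations do not settle whether they are. On the first principal component the number 2 arrays scored 14.8 (pad4) and 3.08 (double mutant), between numbers 1 and 3 in each group. With the block 1604 probe sets had an unadjusted p under 0.05 by limma, against 569 without it. Of 160 list medians recomputed under the alternatives 5 moved by more than the spread between arrays. That count is no measure of stability, since some settings cannot move a median and several lists hold 1 gene above the filter. The EDS1 module, which is SAG101 alone, turned to -0.15 with stage as a covariate. Its spread of 0.47 meant that this did not count as a move. Of 15 correlations with similar genes 4 differed by over 0.1 as rank correlations (0.71 to 1.00) and 0 as correlations of deviations from the group means (0.95 to 1.00).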
